A study of Mus musculus with 76 samples.

Results

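The cytosolic ribosomal protein genes are the genes whose products, with the ribosomal RNAs, build the large (60S, Rpl genes) and small (40S, Rps genes) subunits of the cytoplasmic ribosome. Members were chosen by symbol, as Rpl or Rps followed by a number and at most 1 letter, together with Rplp0, Rplp1, Rplp2 and Rpsa. A mean raw count of at least 100 over the 76 libraries was also required. Of 83 genes with such a symbol 79 were kept, out of 54232 genes in the table, 47 for the large and 32 for the small subunit. Just outside the minimum lay Rpl29 (mean count 77.8) and Rpl21 (16.1), with the paralogs Rpl39l (1.39) and Rpl10l (0.105) far below it. Just inside it lay Rpl32l (131), Rps4l (170) and Rpl35a (302). Of the members, 76 are annotated as protein coding and 3 as processed pseudogenes (Rps4l, Rpl32l and Rpl6l). All 79 passed the expression filter of every test.

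RNA came from the heart, the kidney and the visceral adipose tissue (VFAT) of male Fox Chase SCID mice (strain CB17/Icr-Prkdcscid/IcrlcoCrl) aged 12 weeks, which carry the Prkdc scid mutation in all groups and lack working T and B lymphocytes. In each tissue the 5 arms were partial nephrectomy with NaKtide cells, with scrambled cells or with control cells, partial nephrectomy alone (PNx) and sham surgery (Sham). Partial nephrectomy removes kidney mass and is used to model uremia. NaKtide is a peptide that blocks signalling through the Na/K-ATPase, and the labels name the cells as carrying lentiviral NaKtide or its scrambled form without giving the cell type. Each of the 15 groups had 5 samples, except VFAT scrambled cells with 4. Nothing in the labels says that the samples of a group came from separate animals, so the p-values measure the spread between these samples only. In bulk RNA, fewer cells of a type and less RNA per cell cannot be told apart.

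Each ribosome holds 1 copy of nearly every ribosomal protein, and cells make the proteins in matched amounts. The messenger RNAs are short and abundant, and most begin with a C followed by a run of pyrimidines, the terminal oligopyrimidine (TOP) motif, through which the kinase mTOR and the RNA-binding protein Larp1 control their translation. In mouse a few members have paralogs with tissue-restricted expression, among them Rpl3l in striated muscle.

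The start-site windows show what the messages share and how the annotation limits it. RefSeq promoters (GRCm38.p6) were available for 59 of the 79 members by symbol. A C at the annotated start followed by 4 bases that are each C or T, read on the gene's strand, was present in 14 of these 59 genes (23.7%), against 813 of all 27025 genes with a promoter (3.01%). Starts within 5 bases of such a run were found for 49.2% of the members and 21.2% of all genes. The windows run from 10 bases before to 20 bases from the annotated start, 5′ to 3′, with the run at the start in capitals. Rplp2, Rps27 and Rps6 are members named throughout that hold the run. Rpl15 and Rpl38 were chosen after their values were seen, as members with a weak and a strong relation to RNA length.
Rplp2 (chr7:141447641-141447670, plus strand): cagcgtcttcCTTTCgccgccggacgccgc
Rps27 (chr3:90213629-90213658, minus strand): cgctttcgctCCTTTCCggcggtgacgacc
Rps6 (chr4:86857348-86857377, minus strand): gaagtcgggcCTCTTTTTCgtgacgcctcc
Rpl15 (chr14:18270967-18270996, minus strand): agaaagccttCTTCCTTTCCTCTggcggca
Rpl38 (chr11:114668570-114668599, plus strand): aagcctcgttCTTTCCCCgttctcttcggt
The run at the start had 5 bases in Rplp2, 7 in Rps27, 9 in Rps6, 13 in Rpl15 and 8 in Rpl38. A match describes the annotated sequence, and the starts used in these tissues were not measured.

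Total counts per sample ran from 2803991 to 12986214 for hearts. Kidney samples had 1241590 to 16912788 and VFAT samples 5666563 to 22287510. The labelled tissues carried their markers: the summed level of 6 heart muscle genes was 23470 to 55220 CPM (counts scaled to a common library total) in hearts, that of 7 kidney tubule genes 10600 to 26460 CPM in kidneys, and that of 6 white adipocyte genes 2275 to 19500 CPM in VFAT. Several samples stood apart. Heart Sham 2 and 3 held 927.9 and 2858 CPM of kidney tubule genes, against 7.18 to 51.8 CPM in the hearts of PNx and the remaining Sham samples. VFAT Sham samples held 179.3 to 18740 CPM of 6 epididymis genes, against at most 40.9 CPM in the other VFAT arms, and VFAT Sham 1 and 4 had the lowest adipocyte sums (3666 and 2275 CPM). VFAT scrambled samples held 484.4 to 38020 CPM of 7 skeletal muscle genes, 6.24 to 24070 CPM of 7 pancreatic acinar genes, against at most 14.5 CPM in the other VFAT arms, and 598.8 to 7295 CPM of 8 leukocyte genes, against at most 1041 CPM. In each arm with PNx 1 heart held 4092 to 7031 CPM of 4 atrial genes, against 18.7 to 170 CPM in Heart Sham.

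A second way in which samples stood apart was the balance of short and long RNAs. It bears on the members because most of their messages are short. The principal transcript of the members had a median length of 803 bases (76 members with one, 345 to 5130), against 2402 bases over 22482 coding genes. Tested genes other than the members were also ordered by exon length, a different scale. On that scale the members had a median of 1734 bases and ran from 399 to 6270. Only the members were left out, so their pseudogenes could enter the index. A length index was computed for each sample as the mean log2 CPM of the shortest 20% of these genes minus that of the longest 20%. Its median was −0.78 in Heart, −0.97 in Kidney and −1.03 in VFAT. In 11 samples it lay more than 0.7 above the tissue's median: Kidney NaKtide 1, scrambled 4, control cells 4 and 5 and PNx 3, 4 and 5, Heart Sham 2 and 3, and VFAT NaKtide 1 and PNx 2. These are called samples of high index below. Heart Sham 2 and 3 had the lowest totals among hearts (5412094 and 2803991 counts). Kidney control cells 4 and 5 had the lowest among kidneys (4811672 and 1241590). The other samples of high index were not the lowest of their tissue. Kidney PNx 3, 4 and 5 had 8464665, 7723134 and 8414149 counts, against 7528968 and 16912788 in PNx 1 and 2. The part of depth was not tested. The index is itself a measure of expression, so it does not tell RNA fragmentation from biology, and its cause was not tested.

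Together the 79 members took 1.77% of all counts. The share varied several-fold within a tissue. In Kidney PNx samples 1 to 5 it was 1.42, 1.35, 4.37, 2.598 and 2.81%, against 1.41, 1.43, 1.45, 1.26 and 1.39% in Kidney Sham. PNx 1 and 2 thus lay within the Sham range and PNx 3, 4 and 5 above it. In Kidney control cells it was 1.43, 1.44, 1.80, 3.53 and 4.75%, and the last 2 samples stood far above the other 3. Kidney NaKtide samples had 2.83, 1.44, 1.40, 1.69 and 1.31%, and Kidney scrambled samples 1.65, 2.30, 2.48, 2.65 and 2.02%. Each arm with PNx had at least 1 sample above every Kidney Sham sample.

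**Figure D1:**
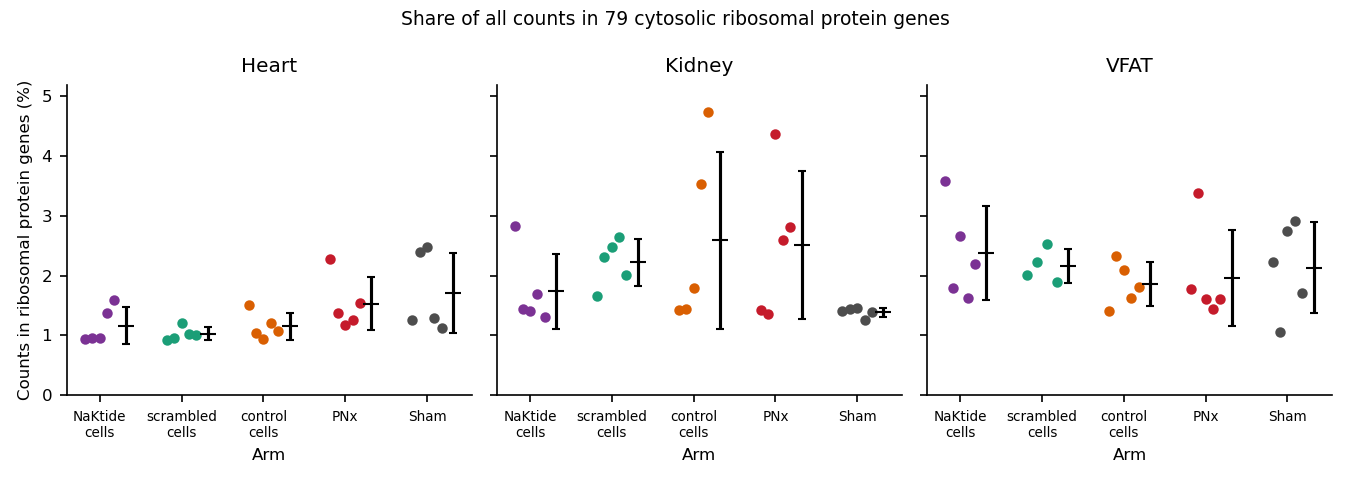
Share of all counts (percent) in the 79 ribosomal protein genes, by tissue (panels) and arm; each point is a sample, and the bar is the mean with its SD (n = 5, VFAT scrambled n = 4). Kidney Sham samples sit close together at 1.26 to 1.45%, whereas Kidney PNx samples spread over 1.35 to 4.37%.

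In Heart the shares were 2.28, 1.38, 1.18, 1.26 and 1.55% in PNx, against 1.26, 2.39, 2.48, 1.28 and 1.12% in Sham. The groups overlapped, with Sham 2 and 3 the highest hearts of all. Heart samples with transplanted cells had 0.94 to 1.59% with NaKtide cells, 0.92 to 1.21% with scrambled cells and 0.93 to 1.51% with control cells, and each of these ranges overlapped those of PNx and Sham. In VFAT, PNx samples had 1.77, 3.38, 1.61, 1.44 and 1.61%, against 2.22, 1.06, 2.74, 2.92 and 1.71% in Sham, and these groups also overlapped. The share followed the index. It was 2.598 to 4.75% in the 7 kidneys of high index, against 1.26 to 2.48% in the other 18. It was 2.39 to 2.48% in the 2 hearts of high index, against 0.92 to 2.28% in the other 23, and 3.38 to 3.59% in the 2 VFAT samples of high index, against 1.06 to 2.92% in the other 22.

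The balance between the subunits moved little. The counts of large-subunit members over those of small-subunit members gave a ratio of 1.38 to 1.48 among hearts, 1.44 to 1.57 among kidneys and 1.33 to 1.56 among VFAT samples. Ribosomal protein genes have many processed pseudogenes, and 300 genes in the table are named as pseudogenes of them. These held a further 1.73% of all counts, nearly as many as the members. In a sample the pseudogenes took 46.0 to 48.8% of the summed counts of members and pseudogenes among hearts, 44.5 to 51.3% among kidneys and 48.5 to 51.7% among VFAT samples, so this split differed little between samples. Among members, the pseudogene share was 95.1% for Rpl35a, 94.6% for Rpl17 and Rps12, 87.0% for Rpl10 and 84.8% for Rpl30, and 0% for Rpl11, Rpl37, Rpl41, Rpl3l and Rps27l. For 26 members it was over 50%, and the level of such a member is uncertain, since the counting could assign its reads to a near-identical copy.

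Per-length levels of the members differed by up to 104-fold within Heart, although the proteins are needed in nearly equal numbers. The spread was 797-fold in Kidney and 4725-fold in VFAT, where Rpl3l was the lowest member. FPKM divides by exon length, and Spearman's rho between level and exon length across the 79 members was −0.48 in each tissue. The part of annotated length in these levels was not tested. On the deposited FPKM scale the median member stood at 92.0 in Heart, 95.6 in Kidney and 106 in VFAT. Rplp1, which with Rplp0 and Rplp2 forms the stalk that recruits translation factors, was the highest, with a median of 660 FPKM in Heart, 612 in Kidney and 728 in VFAT. Rps15, a protein of the small-subunit head, followed with 500, 519 and 549 FPKM in the same order of tissues. Rpl41, the smallest ribosomal protein, had 271, 367 and 374 FPKM, and Rpl19 had 279, 319 and 343 FPKM. Rpl4 was also among the 5 highest in Kidney (270 FPKM).

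**Figure D2:**
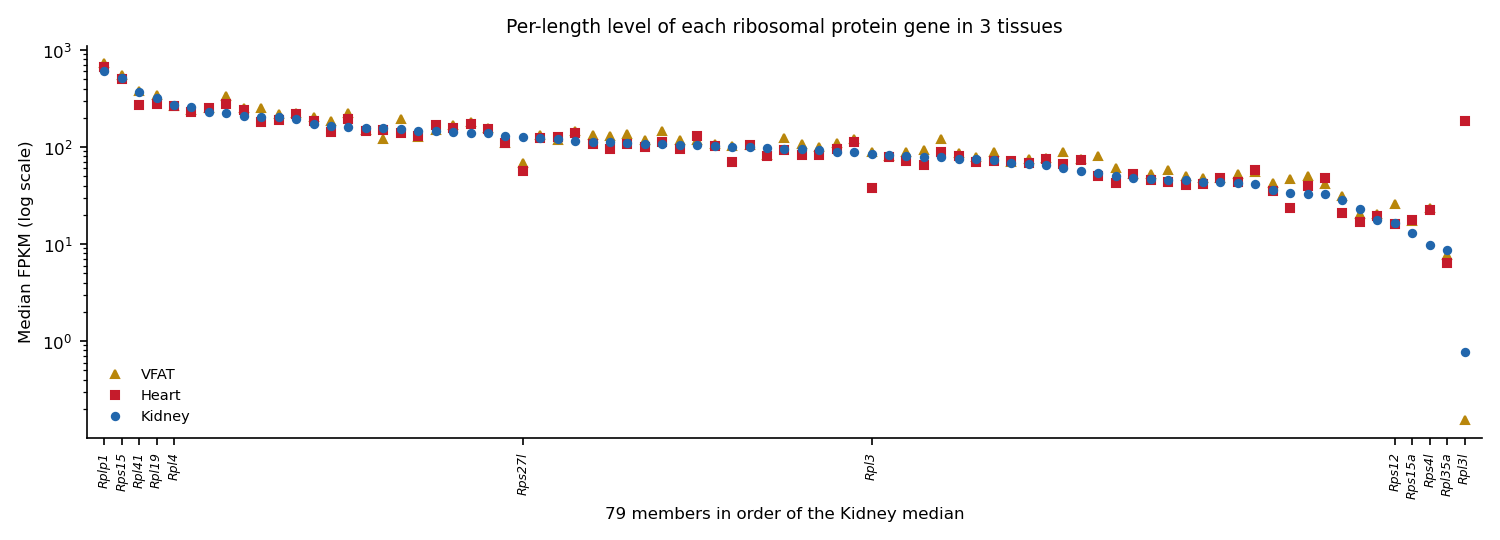
Median FPKM (log scale) of each of the 79 members in VFAT, Heart and Kidney, with members in order of the Kidney median; the 5 highest and 5 lowest in Kidney, Rpl3 and Rps27l are labelled. The 3 tissues run close together for most members, and Rpl3l, last in the Kidney order, lies furthest apart, at 187 FPKM in Heart, 0.77 in Kidney and 0.15 in VFAT.

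At the low end stood Rpl35a, with medians of 6.34 FPKM in Heart, 8.57 in Kidney and 7.78 in VFAT, with Rps12, Rpl13a, Rps15a and Rpl30 at 13.0 to 20.6 FPKM where they were among the 5 lowest. In Kidney the 5 lowest also held Rpl3l (0.77 FPKM) and Rps4l (9.77 FPKM), and in VFAT Rpl3l (0.15 FPKM). Rpl35a, Rps12 and Rpl30 are among the members with the largest pseudogene shares. The order of members was much the same in each tissue, with Spearman's rho across the 79 genes of 0.90 between Heart and Kidney, 0.92 between VFAT and Heart and 0.96 between VFAT and Kidney. These genes share libraries and lengths and are not independent replicates.

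Rpl3 and Rpl3l, alternative proteins for the same site near the peptidyl transferase centre, showed the largest contrast between tissues. Rpl3l (chromosome 17, 24727820 to 24736143, plus strand; coordinates of genes are from GENCODE on GRCm38) was at 343, 478, 514, 270 and 250.5 CPM in Heart Sham samples 1 to 5, against 1.13, 1.46, 2.56, 0.84 and 0.59 CPM in Kidney Sham. No heart overlapped any kidney. The difference was 8.32 ± 0.80 on the log2 scale (SE; edgeR adjusted p = 6.54e-14). Rpl3 (chromosome 15, 80077791 to 80091868, minus strand) was at 90.7, 145, 163, 94.7 and 98.8 CPM in Heart Sham, against 265, 272, 279, 271 and 252 CPM in Kidney Sham. It was lower in each of the 5 hearts, by −0.91 ± 0.27 (adjusted p = 0.00323). In VFAT Sham, Rpl3 was at 421, 176, 474, 540 and 335 CPM, higher than in Heart Sham by 1.22 ± 0.28 (adjusted p = 0.000132), with no overlap. With the length index as a covariate Rpl3 stayed called in both comparisons, at −1.56 and 1.61.

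**Figure D3:**
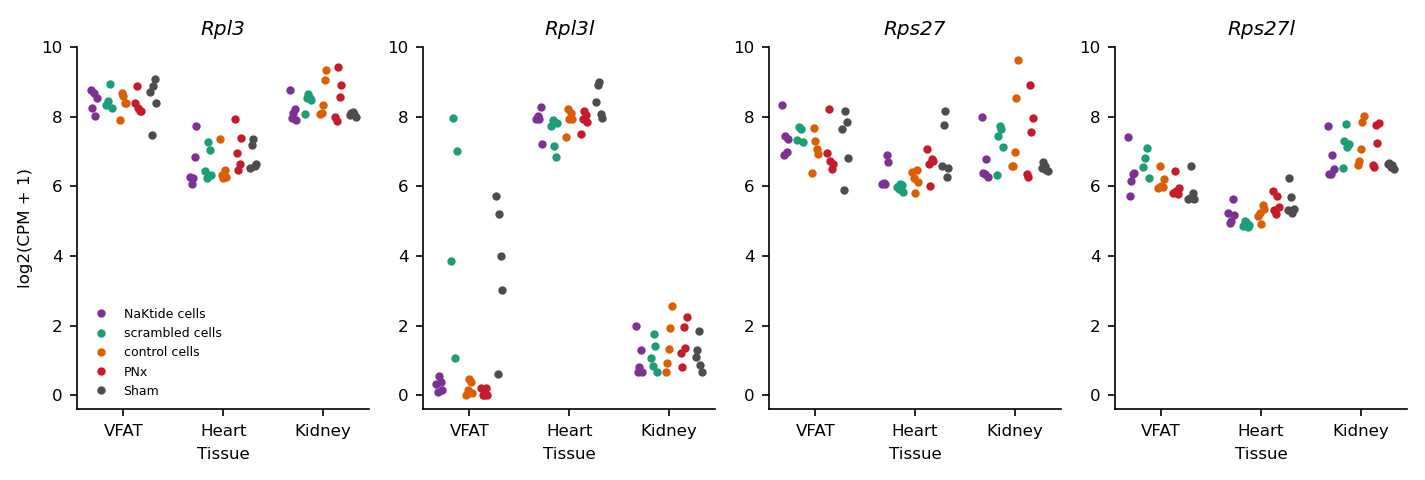
Levels of Rpl3, Rpl3l, Rps27 and Rps27l as log2(CPM + 1) in each sample, by tissue and arm. Rpl3l is high in every heart and low in every kidney, and within VFAT it is above 2 on this scale in 3 of 4 scrambled and 4 of 5 Sham samples, whereas Rps27l runs from 27.2 to 73.9 CPM in hearts and from 80.8 to 258 CPM in kidneys.

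Rps27 and Rps27l are paralogs of the small subunit, and Rps27l is known as a target of p53. Rps27l (chromosome 9, 66946086 to 66949516, plus strand) was at 39.1, 73.9, 50.9, 36.5 and 39.5 CPM in Heart Sham, and at 49.0, 49.6, 94.9, 55.0 and 49.0 CPM in VFAT Sham. Kidney Sham had 99.6, 101, 93.7, 97.4 and 89.7 CPM, so that all Sham hearts and all VFAT Sham samples but Sham 3 lay below every Sham kidney. The log2 difference was −0.74 ± 0.25 for Heart against Kidney (adjusted p = 0.00923) and −0.92 ± 0.25 for VFAT against Kidney (adjusted p = 0.00137). Rps27 was higher in Heart than in Kidney by 0.97 ± 0.41 (adjusted p = 0.0401), but this call ended without the samples of high index (0.23, adjusted p = 0.514), while Rps27l kept its call and direction (−1.01).

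Over all members, Heart Sham against Kidney Sham gave 44 called higher and 2 lower at an adjusted p under 0.05, with a median log2 difference of 0.78. That is 58.2% of members, and 58.7% of all 19180 genes tested were called. The 2 called lower were Rpl3 and Rps27l. Among those higher were Rpl24 (1.76 ± 0.46, adjusted p = 0.000743), known in mouse from the belly spot and tail mutant, Rplp2 (1.498 ± 0.39), Rpl36 (1.68 ± 0.49) and Rpl38 (1.40 ± 0.43). Rps4l, annotated as a processed pseudogene, was also higher (1.72 ± 0.32, adjusted p = 5.47e-06). The high values were those of Heart Sham 2 and 3: Rpl36 was at 99.1, 330, 565.5, 101 and 81.9 CPM in Heart Sham, against 86.8, 82.8, 91.4, 70.8 and 96.3 CPM in Kidney Sham. The count was 25 without Heart Sham 2 and 23 without Heart Sham 3. Without the samples of high index 13 members were called, and with the index as a covariate 26 were called and the median was −0.20. The 58.7% of all genes is from the fit with all samples and without the index.

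VFAT Sham against Heart Sham gave 1 member higher (Rpl3) and 12 lower, or 16.5% of members, where 57.1% of all genes were called. For Rpl3l the log2 difference was −4.57 ± 0.66 (adjusted p = 2.01e-08). Also lower were Rpl24 (−1.45 ± 0.45), Rpl36 (−1.36 ± 0.48), Rpl28 (−1.12 ± 0.36), Rpl38 (−1.05 ± 0.43) and Rps2 (−0.48 ± 0.16, adjusted p = 0.00773). The count was 6 without Heart Sham 2, 3 without Heart Sham 3, 8 without VFAT Sham 2, 7 without VFAT Sham 5, and 20 without Heart Sham 4, Heart Sham 5 or VFAT Sham 3. VFAT Sham against Kidney Sham gave 9 higher and 1 lower, 12.7% of members, where 51.5% of all genes were called. Higher in VFAT were Rpl3l (3.75 ± 0.68), Rps4l (1.51 ± 0.32), Rpl12 (1.25 ± 0.32), Rps26 (1.19 ± 0.35), Rpl26 (1.11 ± 0.37), Rpl39 (0.88 ± 0.28) and Rpl23a (0.70 ± 0.22). Rps26, which lines the exit of the mRNA channel, was at 369, 99.9, 403, 492 and 237 CPM in VFAT Sham. Sham 2 was the lowest, as it was for 76 of the 79 members, and without it 18 members were called. The shares of all genes in this paragraph are from the fits with all samples. Epididymis genes were at 18740, 179.3, 2638, 12760 and 5848 CPM in Sham 1 to 5. Their part in these differences was not tested.

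The members moved together with the length index in every tissue. Fitted within arms, the slope of a gene is its log2 change per unit of index. In Kidney all 79 members had a called positive slope, with a median of 1.26, where 62.9% of all 16307 genes were called in either direction. In Heart 78 were called positive (median 1.203; 50.2% of 15091 genes called), and in VFAT 78 (median 1.02; 35.5% of 17552 genes called). Rpl3l was the member not called in Heart (0.37 ± 0.26) and in VFAT (0.67 ± 1.51). Part of the background calls follows from building the index out of those genes. Pseudogenes of the members could enter the index too, so part of the members' slope may also be built in. Fits with the index as covariate may likewise remove part of the members' own signal.

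**Figure D4:**
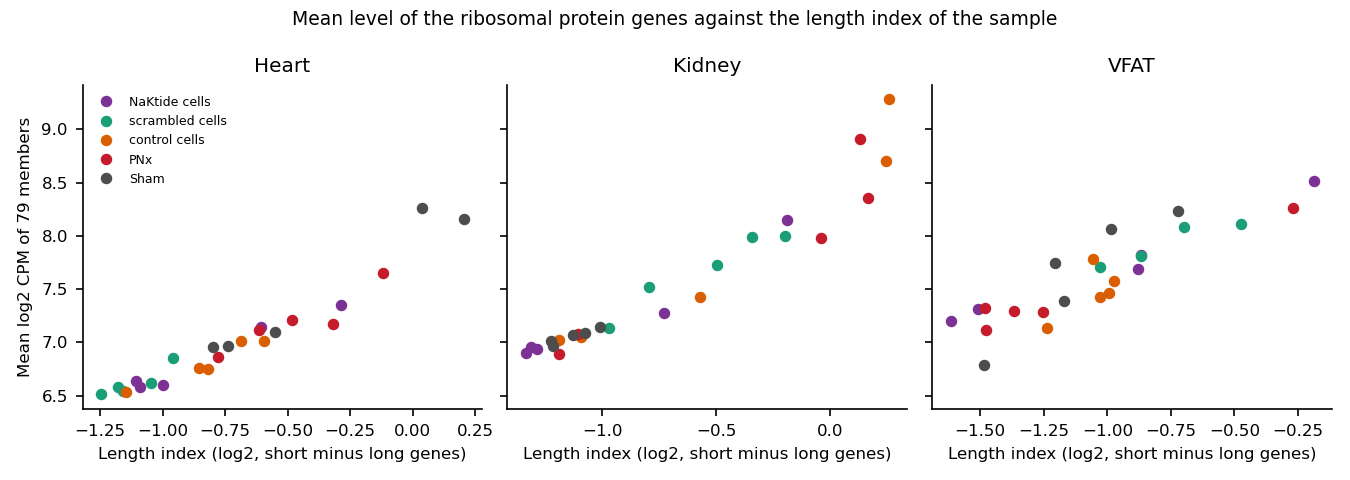
Mean log2 CPM of the 79 members against the length index of each sample (log2, short minus long genes), by tissue and arm. Levels rise with the index in each tissue, and the Heart Sham, Kidney PNx and Kidney control-cell samples of high index lie at the upper end. VFAT samples do not keep to 1 line: the lowest level (6.79) is a Sham sample and the lowest index (−1.62) a NaKtide sample.

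Members differed among themselves in slope. The steepest in Kidney were Rpl36 (1.997 ± 0.18), Rpl41 (1.94 ± 0.17), Rpl24 (1.82 ± 0.15), Rpl32l (1.80 ± 0.19), Rpl38 (1.69 ± 0.14) and Rps27 (1.67 ± 0.14). Rpl36, Rpl24, Rpl38 and Rpl41 were also steep in Heart, at 1.79, 1.99, 1.81 and 1.74, and in VFAT, at 1.37, 1.26, 1.30 and 1.34. The flattest were Rpl4, which lines the exit tunnel, at 0.47 in Kidney, 0.50 in Heart and 0.49 in VFAT, and Rps2, near the mRNA entry, at 0.61, 0.44 and 0.47. Principal transcripts are 383 bases for Rpl36 and 368 bases for Rpl38, against 1538 bases for Rpl4 and 1046 bases for Rps2. Across 76 members Spearman's rho between slope and this length was −0.45 in Heart, −0.36 in Kidney and −0.46 in VFAT, across genes of the same libraries. Rpl15, whose window holds the 13-base run, had slopes of 0.66, 0.75 and 0.79 in Heart, Kidney and VFAT, and Rpl38, with 8 bases, had 1.81, 1.69 and 1.30.

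The median slope of the members was larger than that of the shortest class of other genes by exon length. This class is not matched to the members, whose exon lengths ran from 399 to 6270 bases with a median of 1734. For the other genes of Kidney, in 5 classes of equal size from short to long, the median slope was 0.65, 0.23, −0.03, −0.22 and −0.51. The 40 shorter members had a median of 1.35 and the 39 longer ones 1.2035. In Heart the shortest class of other genes had 0.66, and the shorter and longer members 1.28 and 1.13. In VFAT the values were 0.61, 1.06 and 0.97. These are descriptions of the medians, without a test of the difference.

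Partial nephrectomy in the kidney asks how the remaining tissue differs from a whole kidney. All 79 members had a positive log2 fold change in Kidney PNx against Sham, with a median of 0.999, quartiles of 0.83 and 1.15, and a range from 0.34 (Rpl4) to 1.45 (Rpl38). Only 6 rose at an adjusted p under 0.05 (7.59% of members), where 16.8% of all genes were called. The shift ran through both subunits, with a median of 1.04 for large and 0.98 for small members. An unadjusted p under 0.05 was reached by 73 members. DESeq2 called 31 members and limma with voom and sample weights 75. The 16.8% is edgeR's share and cannot be set beside these counts.

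Rpl12, at the base of the stalk (chromosome 2, 32961559 to 32965345, plus strand), was at 102, 91.8, 533, 198 and 222.5 CPM in Kidney PNx 1 to 5, against 102, 109, 98.5, 94.7 and 98.3 CPM in Sham. PNx 1 and 2 lay within or below the Sham range and PNx 3, 4 and 5 above it. The log2 fold change was 1.19 ± 0.39 (2.28-fold, adjusted p = 0.0416). Rpl11, which with Rpl5 binds the p53 regulator Mdm2 (chromosome 4, 136028265 to 136053428, minus strand), was at 197, 178, 847, 386 and 475 CPM in PNx, against 189, 187, 206, 170 and 186 CPM in Sham. It showed the same split of PNx samples and rose 2.22-fold (1.15 ± 0.38, adjusted p = 0.0431). Rpl37 was at 116, 94.4, 483, 229 and 295 CPM in PNx, against 103, 101, 99.1, 95.1 and 107 CPM in Sham (1.27 ± 0.44, adjusted p = 0.0483). Rpl10, among the last proteins to join the large subunit, was at 185, 198, 739, 403 and 533 CPM in PNx, against 214, 209, 196, 184 and 199 CPM in Sham (1.04 ± 0.36, adjusted p = 0.0483).

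Rpl31, at the exit of the tunnel, was at 149, 141, 621, 292 and 323 CPM in PNx, against 146, 141, 153, 139.5 and 132.5 CPM in Sham (1.10 ± 0.38, adjusted p = 0.0499). Rpl30 was at 51.6, 45.3, 152, 88.0 and 127 CPM in PNx, against 53.2, 54.2, 55.8, 52.8 and 44.8 CPM in Sham (0.83 ± 0.29, adjusted p = 0.049999). In all 6 genes the 3 highest samples were PNx 3, 4 and 5. Rplp1, the highest member on the FPKM scale, was at 315, 238, 1097, 596 and 788 CPM in PNx. Sham samples had 272, 264, 312, 262 and 273 CPM of Rplp1, and it did not pass (1.13 ± 0.50, adjusted p = 0.0943). Rps6, the substrate of the S6 kinases, did not pass either (0.80 ± 0.32, adjusted p = 0.0722), nor did Rps19 (1.31 ± 0.51, adjusted p = 0.0669), the protein mutated in many human families with Diamond-Blackfan anemia.

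The 3 high samples are the Kidney PNx samples of high index. The index averaged −0.41 ± 0.68 in Kidney PNx and −1.13 ± 0.09 in Kidney Sham (SD, n = 5 each). With the index as a covariate no member was called and the median fold change was −0.08, with Rpl12 at 0.15 and Rpl11 at 0.10. Without the samples of high index, which leaves PNx 1 and 2, no member was called and the median was −0.07, with Rpl12 at −0.06 and Rpl11 at −0.02. Other genes of Kidney followed length in the same comparison, with medians of 0.56, 0.29, 0.06, −0.10 and −0.33 in the 5 length classes from short to long. Markers of dividing cells were at 33.7, 33.0, 33.9, 24.1 and 29.9 CPM in PNx 1 to 5, against 6.38 to 10.1 CPM in Sham, so they were high also in PNx 1 and 2, where members were not. Leukocyte markers were high in PNx 3 only (1325 CPM, against 79.7 to 209 CPM in the other PNx and 87.9 to 115 CPM in Sham). Their part in the members' levels was not tested.

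**Figure D5:**
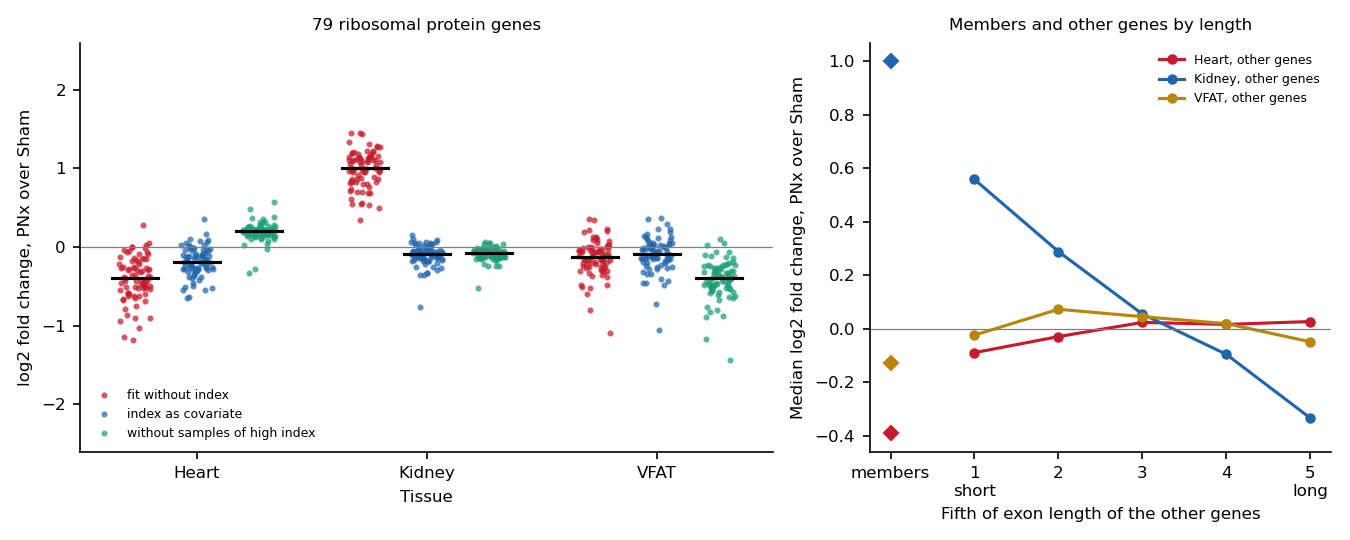
Left, log2 fold change of PNx over Sham for each of the 79 members in 3 tissues, in the fit without the length index, with the index as covariate and without the samples of high index; bars are medians, and Rpl3l in VFAT lies below the axis. Right, the members' median (diamonds) beside the medians of the other genes in 5 classes of exon length: in Kidney the members stand at 0.999 and other genes run from 0.56 (short) to −0.33 (long).

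Removing single samples moved the Kidney count more than any other. It was 58 without PNx 1 and 71 without PNx 2, and 0 without PNx 3, PNx 4 or PNx 5. It was also 0 without any 1 of the Sham samples, and 38 without control cells 5, a sample outside the comparison that shares the estimate of the spread. Leaving out 1 of the other samples with transplanted cells gave 1 to 13. The direction of the median was the same in each of these fits. Shares of all genes called in these fits are not given here, so the counts cannot be read as particular to the members.

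In Heart no member was called in PNx against Sham by edgeR, DESeq2 or limma, where 0.126% of all genes were called by edgeR. The median was −0.39, and 75 of 79 members were negative, with an unadjusted p under 0.05 for 19. Rpl36 was at 138, 103, 84.7, 103 and 101 CPM in Heart PNx, against 99.1, 330, 565.5, 101 and 81.9 CPM in Sham (−1.14 ± 0.38, adjusted p = 0.177). Rpl24 was at 77.2, 50.2, 41.5, 59.7 and 52.3 CPM in PNx, against 52.7, 185.5, 315.5, 46.1 and 44.1 CPM in Sham (−1.18 ± 0.40, adjusted p = 0.182). Rpl38 was at 112, 78.7, 57.9, 73.7 and 79.9 CPM in PNx, against 74.6, 265, 355, 65.9 and 63.9 CPM in Sham (−1.02 ± 0.36, adjusted p = 0.194). In each the groups overlapped, and Sham 2 and 3, the samples of high index with kidney tubule genes, were the high ones. Without them the median was 0.21, again with no member called.

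Rpl3l, the muscle paralog, was at 179, 244, 287, 264 and 228 CPM in Heart PNx, against 343, 478, 514, 270 and 250.5 CPM in Sham (−0.62 ± 0.23, adjusted p = 0.209). Rpl3 was at 243, 123, 86.6, 98.2 and 165 CPM in PNx, against 90.7, 145, 163, 94.7 and 98.8 CPM in Sham (0.28 ± 0.33, adjusted p = 0.713). The groups overlapped for both genes, and PNx 1 and 5 had the highest Rpl3 and the lowest Rpl3l of the PNx hearts. Markers of other cells stood apart in the same hearts. The 4 atrial genes summed to 361.5, 743.5, 34.0, 277 and 4092 CPM in PNx 1 to 5. PNx 1 held 3258 CPM of fibroblast genes and 1300 CPM of leukocyte genes, against at most 1298 and 234.6 CPM in Sham. The hearts with cells that had the most atrial RNA were NaKtide 5 (7031 CPM), scrambled 4 (5006 CPM) and control cells 1 (5072 CPM). Rpl3l was at 149, 114 and 169 CPM in these 3 hearts, the lowest of each arm, and Rpl3 at 212, 132 and 161.5 CPM. In the NaKtide and control-cell arms that was the highest Rpl3, and among scrambled hearts only scrambled 3 was higher (154 CPM), a heart with 3267 CPM of fibroblast and 807.7 CPM of leukocyte genes. The part of these cells in the levels of Rpl3 and Rpl3l was not tested.

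In VFAT 2 members fell in PNx against Sham (2.53% of members), where 13% of all genes were called, and the median was −0.13. Rps26 (chromosome 10, 128624534 to 128626747, minus strand) was at 129, 276, 122, 108 and 116 CPM in PNx, against 369, 99.9, 403, 492 and 237 CPM in Sham. The groups overlapped through PNx 2, of high index, and Sham 2, where 76 of the 79 members were at their lowest of the Sham samples. The fold change was −1.09 ± 0.33 (2.13-fold lower, adjusted p = 0.0320) and stayed called with the index as covariate (−1.06, adjusted p = 0.00229). Leaving out 1 of 7 of the 10 samples compared ended the call (adjusted p of 0.0643 to 0.129, the highest without Sham 4). With the index as covariate 6 members were called, with Rpl3l, Rps26, Rpl26 (−0.72) and Rpl4 (−0.49) lower and Rplp2 (0.36) and Rps19 (0.37) higher. The 13% of all genes is from the fit without the index. Epididymis genes stood at 0.16 to 40.9 CPM in PNx, against 179.3 to 18740 CPM in Sham, and leukocyte genes at 437.5 to 960.8 CPM in PNx, against 176.6 to 431.5 CPM in Sham. Neither sum overlapped between the groups, and their part was not tested.

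Rpl3l in VFAT was nearly absent from 3 arms. PNx samples held 2 counts of it in all, NaKtide samples 12 and control-cell samples 7. Sham samples 1 to 5 held 316, 3, 329, 103 and 61 counts (51.4, 0.53, 36.1, 14.99 and 7.15 CPM), and scrambled samples 1 to 4 held 113, 1897, 22 and 882 counts (13.6, 246, 1.09 and 129 CPM). The ratio of summed counts per total was 0.00251 for PNx over Sham (95% exact interval 0.000303 to 0.00909, counting error only), and edgeR gave an adjusted p of 0.00107. limma with voom weights did not call Rpl3l in this or the next 2 comparisons (adjusted p of 0.115, 0.254 and 0.264 for PNx against Sham, NaKtide against scrambled and scrambled against control cells). Scrambled over control cells had a ratio of 446.5 (216.5 to 1112; adjusted p = 0.00172), and NaKtide over scrambled cells one of 0.00398 (0.00205 to 0.00696; adjusted p = 0.00213). Skeletal muscle genes stood at 3815, 38020, 484.4 and 25080 CPM in scrambled 1 to 4 and at 6.02, 33.0, 9025, 76.4 and 30.9 CPM in Sham 1 to 5. The order of the scrambled samples was the same for both, while VFAT Sham 1, with the highest Rpl3l in Sham, had no more muscle RNA than PNx samples (9.87 to 20.3 CPM) and the most epididymis RNA. Neither part was tested.

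Tests of the difference between tissues asked whether the PNx effect was the same. Kidney minus Heart gave 45 members called, all positive (57% of members; 12% of all genes were called), with a median difference of 1.28. The largest were Rpl24 (2.48 ± 0.64, adjusted p = 0.0164), Rpl36 (2.44 ± 0.68, adjusted p = 0.0203), Rpl38 (2.35 ± 0.60, adjusted p = 0.0164), Rpl41 (2.09 ± 0.66), Rpl32l (2.05 ± 0.69), Rpl35 (1.97 ± 0.57), Rplp2 (1.89 ± 0.55) and Rpl28 (1.84 ± 0.50). These rest on Kidney PNx 3, 4 and 5 and on Heart Sham 2 and 3: no member was called without Heart Sham 2, without Heart Sham 3 or without Kidney PNx 3, and 4 without Kidney PNx 5. The count was 68 without Kidney PNx 1 and 69 without Kidney PNx 2, and 12 to 29 without Heart PNx 2, 3 or 5, Kidney PNx 4 or Kidney Sham 1, 2, 4 or 5. With the index as covariate no member was called, and without the samples of high index none was called and the median was −0.25. The 12% of all genes is from the fit with all samples, so the other counts cannot be set beside it.

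VFAT minus Kidney gave 15 members called, all negative (19% of members; 11.7% of all genes were called), with a median of −1.03. Among them were Rps26 (−1.995 ± 0.49, adjusted p = 0.00374), Rpl26 (−1.89 ± 0.52, adjusted p = 0.0107), Rpl37 (−1.65 ± 0.49), Rpl17 (−1.61 ± 0.51), Rpl12 (−1.60 ± 0.44), Rpl15 (−0.98 ± 0.29) and Rpl4 (−0.78 ± 0.22). Rpl3l and Rps26 were the 2 that stayed called with the index as covariate (−7.49 and −0.96) and without the samples of high index (−7.46 and −1.43). The count was 3 without Kidney PNx 3, 53 without VFAT PNx 2, 41 without VFAT Sham 2, and 35 and 40 without Kidney PNx 1 and 2. Without any 1 of the other samples compared it was 5 to 16, the lowest without VFAT Sham 4. VFAT minus Heart gave 1 called member, Rpl3l (1.27% of members; 9.41% of all genes were called), and 2 without VFAT Sham 2. The shares of all genes in this paragraph are from the fits with all samples.

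The comparisons among the arms with cells, which ask what the transplanted cells and NaKtide changed, called few members. In Heart none was called in NaKtide against scrambled cells, NaKtide cells against PNx, scrambled against control cells or control cells against PNx, and 0% of all genes were called in each. The medians were 0.28, −0.33, −0.20 and −0.42, and members with an unadjusted p under 0.05 numbered 0, 7, 0 and 18. NaKtide and control cells were set against the same PNx samples. DESeq2 called none in these 4 comparisons, and limma with voom weights called 28 in NaKtide cells against PNx and none in the other 3. The 0% of all genes is edgeR's share and cannot be set beside the 28. Rps3, at the mRNA entry of the small subunit, was among the members of lowest p in control cells against PNx (−0.46 ± 0.16, adjusted p = 0.584), as was Rps12 in NaKtide cells against PNx (−0.62 ± 0.25, adjusted p = 0.578).

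In Kidney none was called in NaKtide against scrambled cells (median −0.40), NaKtide cells against PNx (−0.74), control cells against PNx (0.11) or scrambled against control cells (−0.47). Background calls were 0% in the first 3 of these and 0.0123% in the last. DESeq2 called none, and limma with voom weights called 62, 75, 1 and 5 members in these comparisons. The background calls above are edgeR's and cannot be set beside these counts. All 79 members were negative in NaKtide cells against PNx, with an unadjusted p under 0.05 for 14, the lowest adjusted p being 0.258 (Rpl30, −0.64 ± 0.29). The index averaged −0.97 ± 0.50 in Kidney NaKtide samples and −0.41 ± 0.68 in PNx (SD, n = 5 each), and with it as covariate the median was 0.08. For NaKtide against scrambled cells, leaving out the samples of high index gave 61 called members and a median of −0.60, with 4 samples in each arm. The share of all genes called in that fit is not given here, so the 61 cannot be read as particular to the members. The samples kept still differed in index, at −1.31, −1.29, −0.73 and −1.34 with NaKtide cells and −0.97, −0.50, −0.34 and −0.79 with scrambled cells. With the index as covariate none was called and the median was 0.06. In scrambled against control cells Rpl28 (−1.11 ± 0.45) and Rplp2 (−1.29 ± 0.55) had among the lowest adjusted p (0.391 and 0.402).

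In VFAT the called member was Rpl3l in NaKtide against scrambled cells (2.36% of all genes called; median −0.09) and in scrambled against control cells (2.41% called; median 0.36), with the counts given above. Pancreatic acinar genes stood at 6.24, 4288, 24070 and 572.4 CPM and leukocyte genes at 598.8, 1492, 1207 and 7295 CPM in scrambled 1 to 4, and their part was not tested. None was called in control cells against PNx (0% called; median −0.03) or NaKtide cells against PNx (0% called; median 0.28), with no member at an unadjusted p under 0.05 in either. DESeq2 called none in both, and limma with voom weights called none in the first and 19 in the second. Here too the 0% is edgeR's share.

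Other genes of the translation machinery were counted in lists beside the members. In Kidney PNx against Sham 16.8% of all genes were called, and the called shares of the first 4 lists here lie near or below that. Of 78 mitochondrial ribosomal protein genes 12 rose and none fell (median 0.56, against 0.05 for all genes), among them Mrpl21 (0.80 ± 0.23, adjusted p = 0.0305), Mrpl45 (0.55 ± 0.16) and Mrps12 (0.84 ± 0.26). With the index as covariate none of the 78 was called and the median was −0.02, as with the cytosolic members. Of 20 elongation factors and other TOP messages Gas5 rose (0.61 ± 0.20), and Eif4b (−0.52 ± 0.14) and Pabpc1 (−0.51 ± 0.16) fell. Of 17 other initiation factors 3 fell, Eif4g2 (−1.03 ± 0.32), Eif3a (−0.89 ± 0.28) and Eif4e (−0.51 ± 0.17), all cap-binding or scaffold components of initiation. Of 33 biogenesis genes Nop56, a box C/D snoRNP protein, rose (0.69 ± 0.22).

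Of 20 genes of the mTOR pathway and regulators of ribosomal protein messages, 2 rose and 4 fell, where 16.8% of all genes were called in either direction. Eif4ebp1, the inhibitor of Eif4e, rose (1.67 ± 0.39, adjusted p = 0.0161), and Mtor (−0.64 ± 0.17, adjusted p = 0.0241) and Larp4 (−1.04 ± 0.23, adjusted p = 0.0129) fell. Of 14 genes of the p53 response to ribosomal stress 4 rose, the inhibitor of cyclin-dependent kinases Cdkn1a (2.24 ± 0.36, adjusted p = 0.00249), the apoptosis genes Bax (0.94 ± 0.26) and Bbc3 (0.81 ± 0.23), and Rpl11, which is also a member. With the index as covariate 1 of these 14 was called. For the lists of TOP messages, initiation factors, biogenesis and mTOR genes, values with the index are not given here. Other genes followed length in this comparison, as given above, and the part of length in these lists was not tested. In VFAT PNx against Sham 13% of all genes were called. Among called genes of these lists, Myc (1.24 ± 0.20, adjusted p = 0.000389) and Rrs1 (0.51 ± 0.12) rose, and Mrpl37 (−1.95 ± 0.41), Tsc1 (−0.71 ± 0.22) and Eif4e (−0.56 ± 0.14) fell. The number called in each list is not given here. VFAT Sham samples held 179.3 to 18740 CPM of epididymis genes, against 0.16 to 40.9 CPM in PNx, and their part was not tested. In Heart PNx against Sham no gene of these lists was called.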

How the data were processed

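Total RNA of flash-frozen tissue was extracted with a Qiagen RNeasy kit and sequenced as paired reads of 50 bases, per the labels' protocols. The authors deposited raw counts per gene, counts divided by size factors (a signal that was not used for tests) and FPKM values. Per the submitters' processing notes, HISAT2 2.1.0, Trimmomatic 0.38, DESeq2 (1.20.0, 1.20.1) and the build GRCm38 are named, without a role. Which tool counted the reads, and whether by strand, is not given in the sources used here.

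The 76 libraries gave 74 samples, since the second libraries of Kidney Sham 3 and VFAT scrambled 3 were added to the first. The exon length of each gene was read from the ratio of counts to FPKM and lay within 1% of the GENCODE length for 96.8% of 34929 genes. Counts were tested with edgeR 4.0.16 (TMM, filterByExpr, quasi-likelihood test) in R 4.3.3, over all 5 arms of a tissue, or over all 15 groups for tissue comparisons and differences of effects. Samples of different tissues were treated as independent, since the labels do not tie them to animals. Arm and number recur across tissues. If they mark the same mice, the p-values between tissues do not allow for it. P-values were adjusted over all genes tested by the Benjamini-Hochberg method at 0.05, and 24 comparisons were made. CPM values used TMM-scaled library sizes, and log2 CPM used a prior count of 2. The code was tested on simulated data.

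Alternatives were other size factors, no expression filter, only the arms compared, a replicate block, the index as covariate, other member minimums (10 and 1000), DESeq2 1.42.0, limma 3.58.1 with voom, pseudogene counts added to the parent gene, and each sample left out in turn. The fit without the samples of high index was added after the data were seen. Shares of all genes called are given for the main edgeR fits only. Counts of called members in other fits cannot be set beside those shares. Intervals on counts cover counting error only. The members, the gene lists and the tests were chosen with earlier results of these data known. Named were 18 members given by symbol, in each comparison the 6 called members of lowest adjusted p and the 6 of largest change (with none called, the 3 of lowest adjusted p), the 5 highest and lowest levels per tissue, and up to 3 called genes of each other list by lowest adjusted p. Some genes under this rule are not reported here. Other genes are said to be chosen after their values were seen, which also holds for the flattest slopes (Rpl4 and Rps2) and the pseudogene shares.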

Additional observations from a re-analysis of the deposited data

Results flagged for a closer look

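Dixon's test at the 95% level set the highest and lowest sample against the others in 90 sets of 4 or 5 samples. The sets were the member share, the length index and the CPM of Rpl3, Rpl3l, Rps27 and Rps27l in each of the 15 groups. Chance passes about 1 of 20 sets, and 12 values passed. The measures share samples and are not independent, so the 12 cannot be set against that rate. Kidney NaKtide 1, of high index, stood above the other 4 samples in member share (2.83%, against 1.31 to 1.69%), in Rps27 (251.5 CPM, against 76.2 to 109 CPM) and in Rps27l (213 CPM, against 80.8 to 118 CPM). VFAT PNx 2 stood above its group in member share (3.38%), length index (−0.27, against −1.48 to −1.25), Rpl3 (472 CPM), Rps27 (299 CPM) and Rps27l (86.1 CPM). VFAT NaKtide 1, also of high index, was high in Rps27 (319 CPM) and Rps27l (169 CPM). Heart control cells 1 was high in Rpl3 (161.5 CPM, against at most 87.9 CPM), and VFAT Sham 3 in Rps27l (94.9 CPM, against 49.0 to 55.0 CPM). Control cells 1 held 5072 CPM of atrial genes, against at most 384.9 CPM in the other hearts of its arm. Neither of these 2 samples has a high index.

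The effect of PNx differed between tissues by edgeR's test of the difference. Kidney minus Heart differed for 45 members (57% of members; 12% of all genes), among them Rpl24 (2.48), Rpl36 (2.44), Rpl38 (2.35), Rpl41 (2.09), Rpl32l (2.05), Rpl35 (1.965), Rplp2 (1.89) and Rpl28 (1.84), all on the log2 scale. The 45 became 0 without Heart Sham 2, without Heart Sham 3, without Kidney PNx 3, with the replicate block and with the index as covariate, and these 8 members changed sign without the samples of high index. VFAT minus Kidney differed for 15 (19%; 11.7% of all genes), among them Rpl3l (−8.71), Rps26 (−1.995), Rpl26 (−1.89), Rpl37 (−1.65), Rpl17 (−1.61), Rpl12 (−1.60), Rpl15 (−0.98) and Rpl4 (−0.78). VFAT minus Heart differed for 1 (1.27%; 9.41% of all genes), Rpl3l (−7.67). Of the 15, 3 were left without Kidney PNx 3, 4 with the block, and 2 with the index as covariate or without the samples of high index.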

How the results depend on the processing

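The counts of members with a called slope and the order of Rpl3l between tissues held under the alternatives run, while most counts of called members between arms did not. In Kidney PNx against Sham the 6 called members became 2 with DESeq2 size factors, 0 without the filter, 0 with only the 2 arms, 0 with the replicate block, 0 with the index (median −0.083), 0 with index and block (median −0.11), 0 without the samples of high index (median −0.074; Rpl12 −0.061, Rpl11 −0.016, Rpl10 −0.073 and Rpl30 −0.12), 28 with the second library as a separate sample, 31 with DESeq2 and 75 with voom. In Heart PNx against Sham the median was 0.205 without the samples of high index, where Rpl36 (0.15), Rpl24 (0.21) and Rpl38 (0.22) changed sign, uncalled either way. Heart control cells against PNx had a median of 0.021 with the index and 0.037 with index and block, and Kidney NaKtide cells against PNx of 0.082, 0.095 and, without the samples of high index, 0.035. From 0 called members, voom gave 28 in Heart NaKtide cells against PNx, 62, 1, 75 and 5 in Kidney NaKtide against scrambled cells, control cells against PNx, NaKtide cells against PNx and scrambled against control cells, and 19 in VFAT NaKtide cells against PNx. Without the samples of high index Kidney NaKtide against scrambled cells had 61 and scrambled against control cells 8.

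In VFAT PNx against Sham the 2 calls became 1 without the filter, 0 with only the 2 arms, 1 with the block, 6 with the index, 4 with index and block, 1 at a member minimum of 1000 and 7 with voom. The 1 call in VFAT NaKtide against scrambled cells was 0 with only the 2 arms, at the minimum of 1000, which leaves out Rpl3l, and with voom, and that in scrambled against control cells also 0 with index and block.

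Kidney minus Heart (45) had 13 without the filter and 0 with the block, with the index, with only the groups compared and without the samples of high index, where the median was −0.25 and Rpl24 (−0.24), Rpl38 (−0.12), Rpl28 (−0.24), Rpl36 (−0.28), Rplp2 (−0.28), Rpl35 (−0.23), Rpl41 (−0.19) and Rpl32l (−0.49) changed sign. VFAT minus Heart (1) had 9 with the index and 12 without those samples. VFAT minus Kidney (15) had 8 without the filter, 4 with the block and 2 with the index, with only the groups compared and without those samples. Sham Heart against Kidney (46) had 26 with the index (median −0.20; Rpl36 −0.013 and Rpl38 −0.17) and 13 without those samples, VFAT against Heart (13) had 7 with the block, 22 with the index and 2 with only the groups compared (Rpl38 0.11 without those samples), and VFAT against Kidney (10) had 17 and 40. Sign changes of other uncalled members were Rpl41 (−0.68), Rpl36 (−0.83) and Rps15 (−0.61) in Kidney control cells against PNx with voom, Rplp2 (0.37) and Rps15 (0.28) in Kidney scrambled against control cells with voom and 0.39 and 0.31 without the samples of high index, and, without those samples, Rpl30 (0.073), Rpl10 (0.083) and Rpl11 (0.039) in Kidney NaKtide cells against PNx and Rplp2 (0.065) in VFAT control cells against PNx. The causes were not tested. Of the other values of named members under these alternatives, 899 kept their direction and their side of the threshold, 114 lost the call and 12 gained it.

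With 1 sample left out, 4 values changed sign: in Kidney control cells against PNx Rpl41 ran from −0.058 to 1.41, Rpl36 from −0.22 to 1.41 and Rps15 from −0.16 to 1.10, each negative without control cells 5, and in VFAT control cells against PNx Rplp2 ran from −0.24 to 0.066, positive without PNx 2. Of the other values of named members in these fits, 2349 kept their direction and their side of the threshold, 159 lost the call and 1 gained it. The count ran from 0 to 1 in Heart PNx against Sham, 0 to 71 in Kidney, 1 to 4 in VFAT, 0 to 69 for Kidney minus Heart, 1 to 2 for VFAT minus Heart, 3 to 53 for VFAT minus Kidney, 23 to 56 in Sham Heart against Kidney, 3 to 20 in VFAT against Heart and 8 to 18 in VFAT against Kidney. Shares of all genes called in these fits are not given here. Whether replicate numbers pair the samples is not known, and the main fits used no pairing. Among same-numbered samples of 2 arms of a tissue, 28 of 73 pairs correlated above 0.1. In 0 of 15 sets did every pair do so. Such correlations cannot decide the question, since paired samples need not all correlate.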
